A study of Mus musculus with 6 samples.

Results

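miR-2861, miR-3960, miR-204 and miR-211 are microRNAs (miRNAs), small RNAs that pair with mRNAs and repress them. Each has been linked to bone-like change of vascular smooth muscle cells (VSMCs), which form the middle layer of the artery wall and set its tone. They were chosen by name for that link, with earlier results of these data known. They are 4 of the 1078 mouse reporters on each array, spelled there mmu-miR-2861, mmu-miR-3960, mmu-miR-204 and mmu-miR-211. TNF-α treated cultures (n = 3) were compared with untreated control cultures (n = 3). All were VSMCs of 8-week-old C57BL/6 mice, taken from the abdominal aorta, grown separately and collected after several passages. The labels used here give neither the dose nor the duration of TNF-α, an inflammatory cytokine.

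Mature miRNAs find their targets mainly through the seed, a short stretch near the 5′ end. In mouse bone cells, Runx2 is the transcription factor that starts the osteoblast programme, and calcifying VSMCs also switch it on. miR-204 and miR-211 are known to repress Runx2 mRNA. miR-2861 is known in mouse osteoblasts to repress the histone deacetylase Hdac5, which destabilises Runx2 protein, and miR-3960 to repress Hoxa2, a homeobox gene that restrains Runx2.

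The mature sequences show which members can share targets and which differ in base composition. They are from RefSeq (GRCm38.p6), 5′ to 3′, with the seed (bases 2 to 8) in capitals. In the older names on the arrays an asterisk stands for the minor strand of a hairpin, here the 3′ arm.
miR-2861: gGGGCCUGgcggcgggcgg
miR-204: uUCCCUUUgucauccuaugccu
miR-211: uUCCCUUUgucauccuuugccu
miR-204*: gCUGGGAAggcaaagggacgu
miR-211*: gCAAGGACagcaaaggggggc

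miR-204 and miR-211 had the same seed and differed at 1 of 22 bases (A17U, miR-204 first, counted from the 5′ end). Their 3′ arms differed at 7 of 21 bases and had different seeds. miR-2861 was 94.7% G and C, against 45.5% in both miR-204 and miR-211. The 3′ arms lay between, at 61.9% for miR-204* and 66.7% for miR-211*.

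The RefSeq sequences used here hold no mature miR-3960, so it is shown by its hairpin beside that of its neighbour Mir2861. The capitals mark the longest run of bases that both hairpins hold, 10 bases that occur once in each.
Mir2861: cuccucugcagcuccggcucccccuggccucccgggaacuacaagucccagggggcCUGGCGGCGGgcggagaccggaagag
Mir3960: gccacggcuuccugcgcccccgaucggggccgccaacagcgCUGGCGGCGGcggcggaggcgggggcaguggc

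The 2 hairpins lie 11 bases apart on the minus strand of chromosome 2, Mir2861 at chr2:32712807-32712888 and Mir3960 at chr2:32712900-32712972 (GRCm38.p6). RefSeq places neither inside a longer gene. Cdk9, which encodes a kinase that releases paused RNA polymerase, begins 22 bases downstream of Mir2861 on the same strand. Both hairpins lie inside the window around the Cdk9 start that runs from 250 bases before it to 50 after it, as do 12 of 1005 RefSeq mouse miRNA hairpins (1.19%) for such a window of another gene on their strand. Mir204 lies within Trpm3 on chromosome 19 and Mir211 within Trpm1 on chromosome 7, genes of related cation channels. The hairpins were 82.2% G and C for Mir3960 and 73.2% for Mir2861, ranks 3 and 10 among 480 hairpins matched to reporters by name, whose median was 50%.

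The arrays gave 1 median density per reporter, a fluorescence intensity without background subtraction. A background limit was set on each array at 3 SD above the peak of its densities, with the SD taken from values under the peak. The peak was higher on TNF-α arrays, at 81.0 to 90.7, than on control arrays, at 65.9 to 76.2, and 241 to 252 reporters exceeded the limit on TNF-α arrays and 304 to 335 on control arrays. Which part of a small difference near background comes from this shift and which from treatment cannot be told apart. The smooth muscle markers miR-143 and miR-145 were above the limit on all 6 arrays. The endothelial marker miR-126-3p was also above the limit on all 6 arrays, at 117 to 144 on TNF-α arrays and 119 to 157 on control arrays, and its part in the results was not tested. Of 5 blood cell markers, 4 were above the limit on no array. The single striated muscle, liver or neuron marker of 6 to exceed it on all 6 arrays was miR-206, at 168 to 199 with TNF-α and 237 to 277 in controls, and its part in the results was not tested.

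The test was limma's moderated test on quantile-normalized log2 densities, fitted on the 642 reporters that passed an intensity filter, all 4 members among them. That filter was looser than the background limit and let in reporters above the limit on no array, miR-204 and miR-211 among them. The shares of tested reporters given here thus rest in part on background values. The fit called 146 reporters (22.7%) at an adjusted p under 0.05, 83 higher (12.9%) and 63 lower (9.81%). That balance moved with the scaling, to 163 higher and 41 lower without normalization, to 294 and 25 with scaling to the median of reporters above the limit on all arrays (median scaling), and to 39 and 81 in the authors' processed table, where 285 were tested. Leaving out 1 array gave 79 to 88 calls without a TNF-α array and 70 to 91 without a control array.

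**Figure D1:**
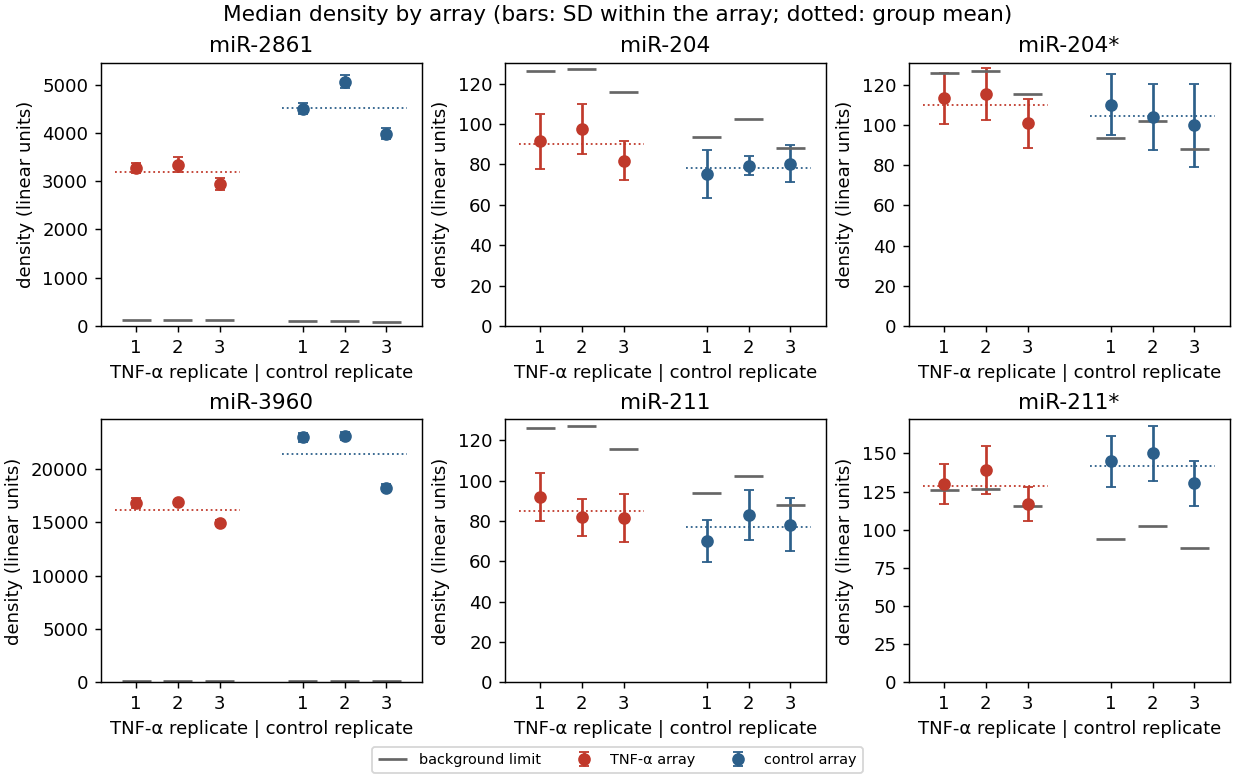
Median density (linear units, axes from 0) of the 4 miRNAs and of both 3′ arms on each TNF-α and each control array, with bars for the SD within the array as deposited, dotted lines for group means (n = 3) and grey dashes for the background limit of each array. miR-2861 and miR-3960 lie far above the limit and lower on all 3 TNF-α arrays, whereas miR-204 and miR-211 lie below it on all 6 arrays.

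Both members of the chromosome 2 pair were lower in TNF-α cultures. Of the 4 members, 2 were called lower and 0 higher, beside the 9.81% of tested reporters that were called lower. Since the members were chosen with earlier results of these data known, this count is a description and not a test. Among the 209 reporters above the limit on all 6 arrays, which include this pair, 15.3% were called lower.

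miR-2861 had densities of 3277, 3338 and 2944 on the TNF-α arrays, against 4505, 5062 and 3986 on the control arrays. All TNF-α values lay below all control values, as after quantile normalization for 19.6% of tested reporters. The density was 25.5 to 49.5 times the limit. The SD within an array was 2.44% to 4.66% of the density, smaller than the spread between cultures (SD of 212 with TNF-α and 538 in controls). The mean density with TNF-α was 70.5% of the control mean. In the model miR-2861 fell by 0.41 ± 0.07 on the log2 scale (SE, n = 3 per group), 1.33-fold lower, with a 95% interval of -0.58 to -0.24 and an adjusted p of 0.00819 in limma. It was past the threshold under all 18 alternatives, with values of -0.50 to -0.36.

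miR-3960 had densities of 16805, 16879.8 and 14917 on the TNF-α arrays, against 22982, 23117 and 18274 on the control arrays. Again no TNF-α value reached the lowest control value, as after quantile normalization for 19.6% of tested reporters. TNF-α replicate 3 and control replicate 3 were the lowest of their groups, as for miR-2861. Those arrays also had the lowest median density over all reporters in their groups, at 85.9 and 74.7. In the authors' processed table miR-3960 was instead highest on TNF-α replicate 3 within its group (16884). The mean was 16201 ± 1112 with TNF-α and 21458 ± 2758 in controls (SD, n = 3 each), so that the TNF-α mean was 75.5% of the control mean. In limma miR-3960 fell by 0.28 ± 0.07 on the log2 scale, 1.21-fold lower, with a 95% interval of -0.44 to -0.11 and an adjusted p of 0.0279. It held rank 5 on all 3 control arrays, so quantile normalization, which sets values by rank, left it no spread there (14.3 on each). TNF-α replicates 1 and 2 also shared a rank, 6, and a normalized value (14.08), and replicate 3 held rank 7 (13.91). The fall of 0.28 and its interval are thus set by the distance between these neighbouring ranks. The adjusted p of 0.0279 therefore does not reflect the raw spread of the control densities. The change was -0.40 without normalization (adjusted p = 0.0191) and -0.49 with cyclic loess (adjusted p = 0.00204). It was not called under 7 of 18 alternatives, including median scaling (-0.25), an offset of 8 in place of 50 added before the log2 step (-0.28) and the absence of TNF-α replicate 3 (-0.23) or of control replicates 1 (-0.26), 2 (-0.26) or 3 (-0.27). The adjusted p over all alternatives ran from 0.00204 to 0.0967.

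The authors' processed table gave the same order of the groups for the pair. miR-2861 read 3194, 3146 and 3079.9 in TNF-α samples and 4436, 4833 and 4126 in control samples. miR-3960 read 16163, 16796 and 16884 in TNF-α samples and 22913, 22791 and 19573 in control samples. In limma on log2 of that table plus 32, miR-2861 was -0.50 (adjusted p = 0.0023) and miR-3960 -0.39 (adjusted p = 0.00965), where 28.4% of the tested reporters were called lower.

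The sizes of the 2 falls were compared within arrays. The log2 density of miR-2861 minus that of miR-3960, within each array and before normalization, was -2.36 to -2.34 on TNF-α arrays and -2.35 to -2.19 on control arrays. The mean difference was -0.10 (exact permutation test, two-sided, p = 0.3, n = 3 per group), and 0.1 is the smallest p that 3 against 3 arrays can give, so this test could not pass 0.05.

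**Figure D2:**
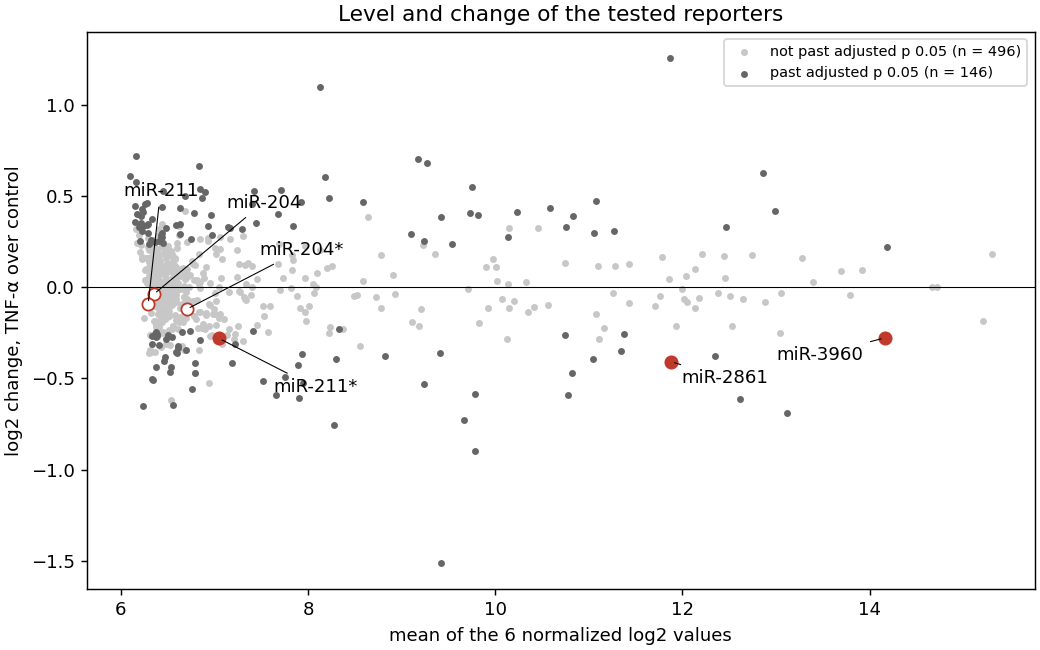
Change on the log2 scale (TNF-α over control) against the mean normalized log2 value over 6 arrays for the 642 tested reporters, with those past an adjusted p of 0.05 in dark grey and the named miRNAs ringed in red (filled where past the threshold). miR-2861 and miR-3960 are among the bright reporters and below 0, and miR-204 and miR-211 sit in the dense cloud of dim reporters near 0.

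miR-204 and miR-211 were not measured above background in either group. miR-204 had densities of 91.4, 97.6 and 81.9 on the TNF-α arrays, whose limits were 126, 127 and 116. On the control arrays it had 75.3, 79.3 and 80.4, against limits of 93.7, 102 and 88.1. All TNF-α densities exceeded all control densities, and all TNF-α background peaks likewise exceeded all control peaks. Measured from the peak of its own array, miR-204 stood 0.723 to 8.44 above it with TNF-α and 3.01 to 14.4 above it in controls. miR-211 had densities of 91.9, 81.8 and 81.3 on TNF-α arrays and 70.0, 83.0 and 78.2 on control arrays. Its groups overlapped, and it was below the peak itself on 1 array of each group. Neither was called in limma (adjusted p = 0.751 for miR-204 and 0.517 for miR-211), and no fold or direction is given because both groups were below the limit. A change of the 2 miRNAs was therefore not detectable with these arrays, which does not show that they were absent or equal.

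The 3′ arms of the same 2 hairpins came out above the limit on some or all arrays. miR-211* had densities of 129.7, 139 and 117 on the TNF-α arrays, against 145, 150.0 and 130.3 on the control arrays. The raw densities overlapped, and all 6 were above the limit, by 1.01 to 1.10 times with TNF-α and 1.47 to 1.54 times in controls. After quantile normalization the groups did not overlap, as for 19.6% of tested reporters in this direction, and miR-211* fell by 0.28 ± 0.07 (adjusted p = 0.0198 in limma). That call did not hold under median scaling (-0.03), in unnormalized values (-0.17) or in the absence of control replicate 2 (-0.27). In the authors' processed table, whose background treatment is not stated, miR-211* read 46.1, 53.2 and 40.8 with TNF-α and 75.6, 75.2 and 64.1 in controls.

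miR-204* had densities of 113, 116 and 101 on the TNF-α arrays and 110.2, 104 and 99.8 on the control arrays. It exceeded the limit on all 3 control arrays and on no TNF-α array, and did not pass the test (adjusted p = 0.23 in limma). Its estimate was -0.12 with quantile normalization and 0.04 without, so no direction is given.

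The scaling of the arrays moved the median change as well as the changes of the members. Over all tested reporters the median change was 0.01 after quantile normalization, 0.14 in unnormalized values, 0.29 after median scaling and -0.12 in the processed table. Relative to it miR-2861 was -0.42, -0.64, -0.64 and -0.38 in that order. miR-3960 was -0.29, -0.54, -0.54 and -0.26 relative to it. miR-211* was -0.29, -0.31, -0.31 and -0.28 relative to it.

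**Figure D3:**
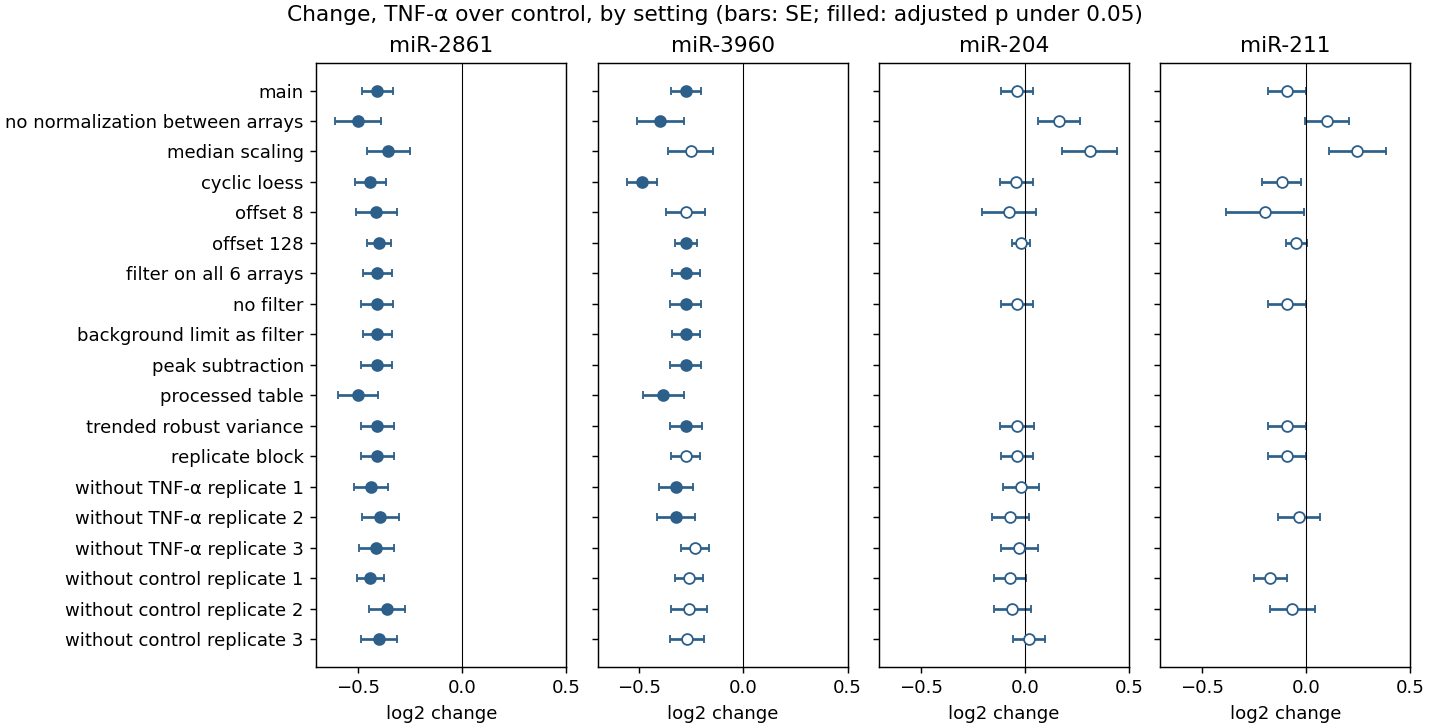
Change on the log2 scale (TNF-α over control, bars for the SE) of the 4 miRNAs under the main setting and each alternative, filled where the adjusted p was under 0.05 and missing where a filter left the miRNA untested. Values of miR-2861 and miR-3960 lie left of 0 throughout, and those of miR-204 and miR-211, which were below the background limit on all arrays and have no direction, lie on either side.

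An array density does not tell a mature miRNA from another RNA fragment with the same letters. RNAs with nearly the same letters may also be read. Whether the reporters of miR-2861 and miR-3960 read such RNAs, or each other's, was not tested. The run of 10 bases that their hairpins share lies inside mature miR-2861. Because miR-2861 is made mostly of G and C, it is set here beside the other reporters of that kind. Of the 1078 reporters, 330 were matched to a mature RefSeq sequence, 326 of them by exact name. Most reporters under older names, and miR-3960, are therefore left out, so the matched reporters do not stand for the whole array. Of the 330, 8 held at least 80% G and C. All 8 were tested, and 6 of them (75%) were above the limit on all 6 arrays, against 50 of the 322 other matched reporters (15.5%). Over all 1078 reporters this held for 209. In limma 3 of the 8 were lower, miR-2861, miR-5130 (-0.58 ± 0.10, adjusted p = 0.00617) and miR-5122 (-0.24 ± 0.07, adjusted p = 0.039). One was higher, miR-2137 (0.33 ± 0.06, adjusted p = 0.0108), and miR-5126, made of G and C alone, was at 0.00 ± 0.08. Quantile normalization set that 0.00 by rank. The mean density of miR-5126 was 29148 ± 2306 with TNF-α and 22696 ± 3389 in controls (SD). Among the other 190 tested reporters with a matched sequence 14 were lower and 21 higher. The median change of the 8 was -0.11, beside 0.02 for the 190. Among reporters above the limit on all 6 arrays, 3 of 6 GC-rich reporters were lower with a median of -0.22, beside 7 of 50 others with a median of 0.02. The part of base composition in the fall of miR-2861 was not tested.

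**Figure D4:**
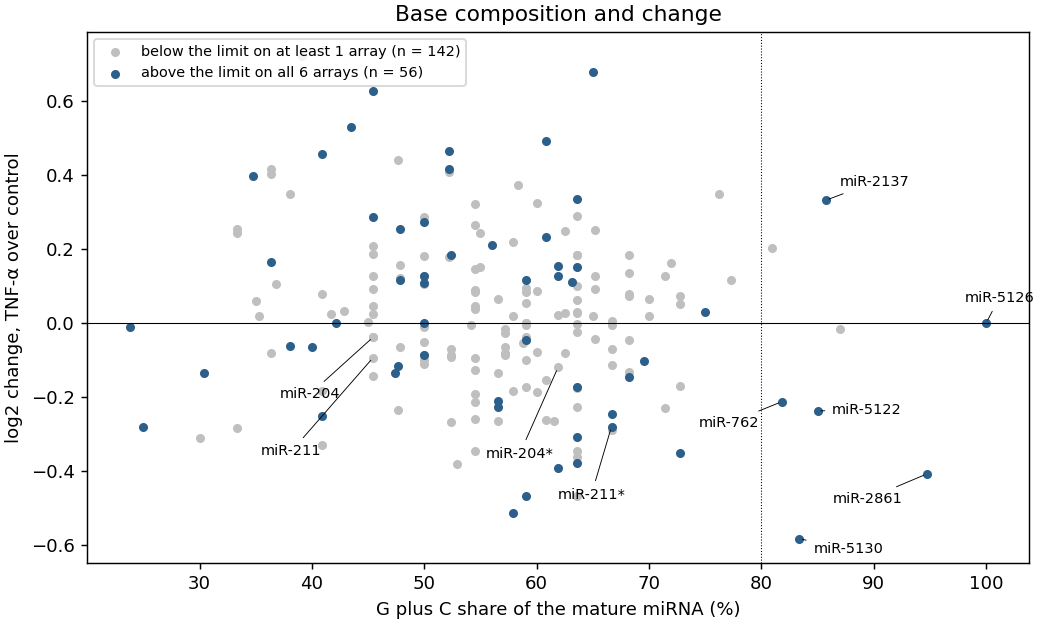
Change on the log2 scale (TNF-α over control) against the G plus C share of the mature miRNA for the 198 tested reporters with a matched sequence, blue where above the limit on all 6 arrays and grey otherwise, with a dotted line at 80%. Right of the line miR-2861, miR-5122 and miR-5130 lie below 0, miR-5126 on 0, as set by rank in quantile normalization, and miR-2137 above 0.

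Of 10 other miRNAs on the arrays that are described as repressing Runx2 mRNA in mouse bone cells, 6 were tested, 0 were higher and 1 was lower, beside 12.9% higher and 9.81% lower among all tested reporters. The limit was exceeded on no array by 6 of the 10, as by 681 of all 1078 reporters. miR-218, an intronic miRNA of the Slit genes, had densities of 526, 432 and 493 with TNF-α and 784, 880 and 719 in controls. These groups did not overlap, as after quantile normalization for 19.6% of tested reporters in this direction. In the model miR-218 fell by 0.53 ± 0.12 (adjusted p = 0.02 in limma). That call was lost without control replicate 1 (-0.52), 2 (-0.50) or 3 (-0.52). The normalized value of miR-218 was 9.51 on all 3 control arrays, so quantile normalization left it no spread there. The values of miR-23a (0.09), miR-30c (-0.07) and miR-34c (0.10) did not pass. The median change of the 6 was -0.04, beside 0.01 for all tested reporters. miR-34c exceeded the limit on 2 arrays and miR-133a and miR-217 on none, so that median rests in part on background values.

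Among miRNAs described in calcifying smooth muscle, 11 of 14 reporters were tested, 1 was higher and 2 were lower, again beside 12.9% and 9.81% of all tested reporters. miR-29b, a repressor of collagen mRNAs, had densities of 354, 399 and 308 with TNF-α and 263, 237 and 220.0 in controls (0.60 ± 0.08, adjusted p = 0.00227 in limma). miR-30b, known in human smooth muscle to repress Runx2, had 614, 627 and 542 with TNF-α and 907, 931 and 741 in controls (-0.36 ± 0.07, adjusted p = 0.00837). miR-714, described with miR-762 and miR-712* in calcifying mouse smooth muscle, had 186, 169 and 162 with TNF-α and 301, 280.3 and 197 in controls (-0.59 ± 0.09, adjusted p = 0.00458). In none of these 3 miRNAs did the groups overlap. After quantile normalization that held in the lower direction for 19.6% of all tested reporters, and the share in the higher direction is not given here. miR-762 did not pass (-0.21, adjusted p = 0.0834). miR-221, miR-222, miR-125b-5p and miR-29a were above the limit on all arrays and lay between -0.04 and 0.05 after quantile normalization. In unnormalized values they were at 0.17, 0.02, 0.14 and 0.13 in that order, beside a median of 0.14 for all tested reporters. The median change of the 11 was -0.03, and 8 of them were above the limit on all 6 arrays.

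**Figure D5:**
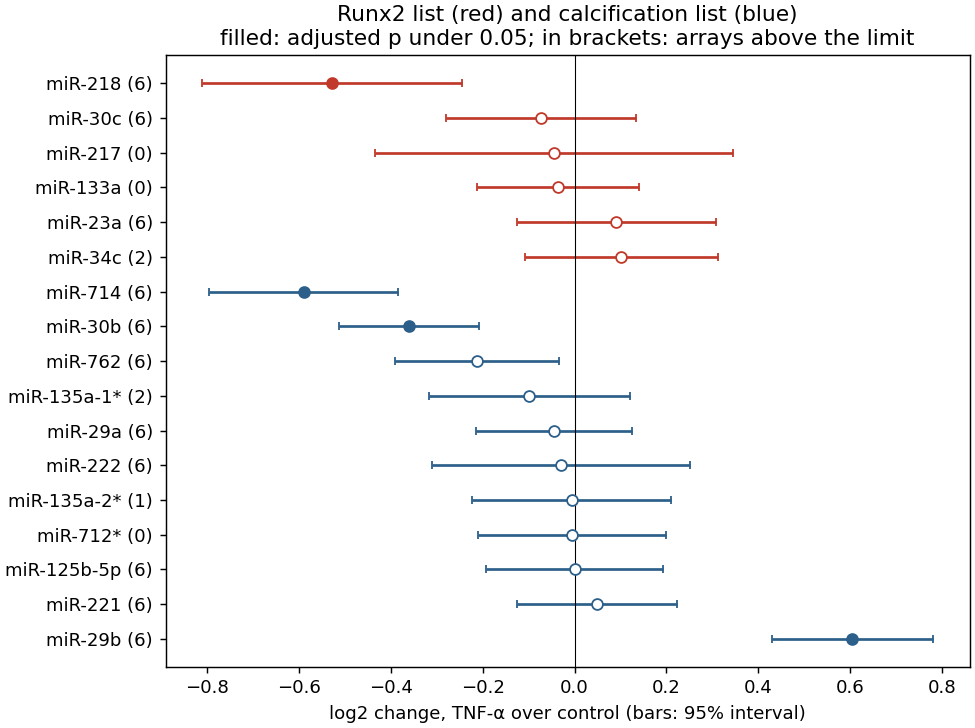
Change on the log2 scale (TNF-α over control) with its 95% interval for the tested miRNAs of the Runx2 list (red) and of the calcification list (blue), filled where the adjusted p was under 0.05, with the number of arrays above the limit in brackets. Most intervals include 0, and the filled points are miR-218, miR-714 and miR-30b below 0 and miR-29b above it.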

How the data were processed

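Total RNA was 3′-tailed, ligated to a tag and stained with Cy5, per the labels' protocols, giving 1-colour arrays. The authors deposited a median intensity and an SD per reporter for each array, per the file headers, and a table of processed intensities whose scaling is not given in the sources used here. Samples were grouped by the treatment label. Replicates are named by the number in their titles, since the descriptions give 2 TNF-α samples the same number.

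Intensities were normexp-corrected (offset 50), log2 transformed and quantile normalized in limma 3.58.1 (R 4.3.3). Reporters entered the fit if the corrected intensity was 32 or more on at least 3 arrays. Group was the sole model term, and p-values were adjusted by Benjamini-Hochberg across the fit (threshold 0.05). Fold changes are on the offset scale, which understates changes of dim reporters. The p-values rest on how far normalized values of separately grown cultures differ within a group. The moderated test also draws each reporter's variance toward a value shared by all tested reporters. Quantile normalization removes the difference within a group where a reporter keeps its rank, as for miR-3960 and miR-218 in controls. For such reporters the p-value does not reflect the full variation among cultures. The number of arrays limits precision. The code was tested on simulated data.

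Named are the members, the other arms of their hairpins, the 3 reporters closest in pattern, and, from 2 lists, called members and the next by p, up to 4. The members and lists were chosen with earlier results of these data known. The alternatives were 3 other scalings, 2 offsets, 3 filters, peak subtraction, the processed table, another variance model, a replicate block and each array left out. Slide and local background were not used here.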

Additional observations from a re-analysis of the deposited data

How the results depend on the processing

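miR-2861 was called lower under all 18 alternatives. The other results moved. The number of changed reporters was 319 with median scaling, against 146, and 70 to 91 with 1 array left out, where fewer reporters were tested. miR-3960 lost its call with median scaling (-0.25), with an offset of 8 (-0.28), with the replicate block (-0.28, adjusted p = 0.0545) and with 4 of the 6 arrays left out in turn (-0.33 to -0.23 over all 6). Deviations of same-numbered arrays correlated at 0.04, 0.02 and 0.15, where all pairs of a TNF-α and a control array ran from -0.13 to 0.15. With 3 arrays per group these values cannot decide whether the replicate numbers pair the cultures. The block gave 103 calls and kept miR-2861 (adjusted p = 0.0318). The estimate of miR-204 turned positive in unnormalized values (0.17), under median scaling (0.31) and when control replicate 3 was left out (-0.070 to 0.019 over the arrays left out). In the same first 2 settings those of miR-211 (0.10 and 0.25) and miR-204* (0.035 and 0.18) turned positive, and miR-211* lost its call (-0.17 and -0.027), as it did for 1 of the arrays left out (-0.32 to -0.25). The causes were not tested. The stricter filters, peak subtraction and the processed table left miR-204 and miR-211 untested, as did the absence of TNF-α replicate 1 or 3 or control replicate 3 for miR-211. Both lay below background, so their estimates describe background values and give no direction.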

Other observations

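By mean absolute difference of centred log2 values over the 6 arrays, the tested reporters most like miR-2861 were miR-467d* (0.04), miR-467a* (0.06) and miR-149 (0.06), of which the first 2 were above the limit on all arrays. miR-467d* (-0.38, adjusted p = 0.00819 in limma) and miR-467a* (-0.39, adjusted p = 0.0269) come from hairpins of a large rodent repeat cluster in an intron of Sfmbt2. The neighbour miR-3960 stood at place 36 in that order, at a difference of 0.09. The reporters most like miR-3960 were miR-320 (0.02), miR-5128 (0.03) and miR-146b (0.04). For miR-204 these were miR-1306-5p, miR-214 and miR-133b* and for miR-211 they were miR-27b, miR-23b* and miR-212-5p, but both miRNAs were at background, so the likeness describes background values.

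Among matched reporters the seed of miR-2861 was shared by miR-3091-3p only, which exceeded the limit on no array and was not tested.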
